A study of Mus musculus with 6 samples.

Results

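Histone genes encode the proteins around which DNA is wound, and the 46 peaks that were assigned to them were followed here in an H3K9ac profile of mouse lung endothelial cells. The peaks were chosen by gene symbol (names that begin with Hist1h to Hist4h, or with H1 to H4 followed by a, b, c or f) from the 17901 peaks of the deposited table, and they belonged to 34 gene symbols. By chromosome and start, 27 peaks of 25 genes were clustered, which means within 500 kb of a peak of another histone gene, and 19 peaks of 9 genes were single. The classes follow position alone. By symbol, Hist3h2a and Hist1h2al would be clustered and H2afj single. Acetylation of lysine 9 of histone H3 (H3K9ac) marks active promoters and enhancers, and CUT&RUN reads it by letting a nuclease release the DNA under an antibody. The cells were lung endothelial cells isolated from WT mice that were Cre-negative (3 libraries) and from CSE-KO mice that were Cre-positive (3 libraries). CSE, or cystathionine gamma-lyase, is the product of Cth and makes cysteine and hydrogen sulfide. The Cre driver, the floxed allele, and the age and sex of the mice were not given in the sources used here. Whether each library stands for its own animal was not given either, so the p-values rest on a spread between libraries that may be technical.

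Most histone genes of mammals are replication-dependent. They have no introns, lie in clusters, are transcribed in S phase in nuclear structures called histone locus bodies, and give mRNAs that end in a stem-loop bound by SLBP instead of a poly(A) tail. Replacement histones, such as those encoded by H3f3a, H3f3b, H2afz and H2afv, come from single genes with introns and polyadenylated mRNAs, and are made throughout the cell cycle. In the intact adult lung endothelial cells divide rarely, but how far the isolated cells profiled here were dividing was not measured.

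The total count over all peaks ran from 313610 to 676056 in the WT libraries and from 679938 to 1173016 in the CSE-KO libraries, with no overlap in depth between the groups. Column names of the deposited normalized values start with one number in the WT libraries and another in the CSE-KO libraries, of unstated meaning, and a batch along that line cannot be told apart from genotype. Cth had 0 peaks, so the targeted gene could not be checked in these data. All 10 endothelial marker genes looked for (among them Pecam1, Cdh5, Tie1 and Erg) had peaks, with a summed level of 2317 to 2501 CPM (read counts scaled to library size, with TMM factors) in WT and 2151 to 2377 CPM in CSE-KO. Of 6 epithelial markers 3 had peaks, at a summed 95.7 to 138 CPM in WT and 109 to 138 CPM in CSE-KO, and Sftpc, Nkx2-1 and Ager had none. Of 6 immune markers only Csf1r had a peak, at 16.7 to 39.6 CPM in WT and 21.6 to 23.9 CPM in CSE-KO. A single mesenchymal marker of 6 had one, at 33.0 to 46.9 CPM in WT and 22.4 to 51.8 CPM in CSE-KO. The sums rest on 32 endothelial, 4 epithelial, 1 immune and 1 mesenchymal peak. In that order, the median level per peak was 39.8, 31.0, 24.3 and 39.8 CPM, so the sums differ mostly by the number of peaks.

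The promoter bases just upstream of 4 histone genes are shown because they belong to the peaks on which the results turn. They are the start under the highest clustered peak (Hist1h2ac), the highest single peak at its own start (H2afy), the clustered peak with the smallest p (Hist1h4j) and the clustered peak with the largest increase (Hist1h1c). All are RefSeq sequences on GRCm38.p6, written 5′ to 3′ along the gene's strand and ending at the base before the transcription start. The Hist1h2ac stretch begins where the neighbouring Hist1h2bc gene does, so it is the whole interval between the pair. Capitals mark the motifs TATAAA (the TATA box), CCAAT (bound by NF-Y) and the octamer ATTTGCAT (bound by Oct1, and part of many H2B promoters), searched on both strands.
Hist1h2ac, chr13:23683960-23684198, minus strand: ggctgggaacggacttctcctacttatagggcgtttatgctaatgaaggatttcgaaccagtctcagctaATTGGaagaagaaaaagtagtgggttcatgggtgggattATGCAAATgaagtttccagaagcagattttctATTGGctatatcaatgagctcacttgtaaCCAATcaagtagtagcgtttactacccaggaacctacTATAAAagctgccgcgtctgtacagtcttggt
H2afy, chr13:56135551-56135800, minus strand: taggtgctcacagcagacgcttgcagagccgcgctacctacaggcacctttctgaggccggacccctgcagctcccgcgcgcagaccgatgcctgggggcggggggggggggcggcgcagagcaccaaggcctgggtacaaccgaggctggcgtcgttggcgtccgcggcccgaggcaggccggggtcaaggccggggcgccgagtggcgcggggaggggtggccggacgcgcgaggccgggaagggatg
Hist1h4j, chr13:21734784-21735033, plus strand: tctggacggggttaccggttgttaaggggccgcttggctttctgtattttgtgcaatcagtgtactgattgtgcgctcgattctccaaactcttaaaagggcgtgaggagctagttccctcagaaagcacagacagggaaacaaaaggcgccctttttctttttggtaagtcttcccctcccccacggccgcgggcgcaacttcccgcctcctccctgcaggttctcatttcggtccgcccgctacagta
Hist1h1c, chr13:23738557-23738806, plus strand: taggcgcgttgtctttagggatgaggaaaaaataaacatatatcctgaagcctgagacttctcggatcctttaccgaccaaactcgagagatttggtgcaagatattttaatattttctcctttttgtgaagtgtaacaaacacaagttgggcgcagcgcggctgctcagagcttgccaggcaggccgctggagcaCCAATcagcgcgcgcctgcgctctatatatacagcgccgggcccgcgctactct
The Hist1h2ac promoter held a TATAAA 32 bases before the start and CCAAT motifs 69, 98 and 169 bases before it, the last 2 on the other strand, with an octamer between them at 130. The Hist1h1c stretch held a CCAAT 54 bases before the start. The H2afy stretch held none of the motifs but 29 CpG dinucleotides in 250 bases, with a GC content of 74.8%. The printed Hist1h4j stretch held no match. A match describes letters only and says nothing of binding.

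Replication genes of the chromosome 13 cluster carried these motifs more often than promoters at large. Over windows of 300 bases (250 before to 50 after the start), 84.6% of 52 histone starts of the cluster held a CCAAT, against 37.4% of all 32851 RefSeq promoters. TATAAA was in 59.6% of them, against 13.6%, and the octamer in 21.2%, against 1.74%. Genes of the cluster are close copies of each other, so their starts are not independent. All H1, H2A, H2B and H3 starts of the cluster had a CCAAT, but only 3 of 11 H4 starts. The octamer was found at 5 of 13 H2A and 6 of 15 H2B starts and at no H1, H3 or H4 start, and H2A and H2B genes often share a divergent promoter. The 7 single genes with a promoter sequence and a peak near the start differed in base composition, with a median of 29 CpG per window, against 10.5 in the cluster and 7 over all promoters. H3f3b held all 3 motifs, and H2afy and H1f0 held none. Hist3h2a, with the fewest CpG of the 7 (14), held the octamer and a CCAAT.

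H3K9ac peaks lay over only part of the cluster. Of the 52 starts of histone genes on chromosome 13 in the RefSeq promoter table, 17 lay under a peak and 35 did not. Only a start whose own base lay inside a peak was counted. Hist1h4k, Hist1h3g, Hist1h1d and Hist1h4d, among the 35, had a peak beside the start, centred 294, 261, 661 and 449 bp from it. An uncovered start is therefore not the same as a gene without a peak. Not in that table were 3 genes of the cluster, Hist1h2bc, Hist1h3f and Hist1h3a. By the deposited distances, the start of Hist1h2bc (position 23684199) lay under its own peak and that of Hist1h3f (23544052) lay outside its peak. Hist1h3a overlapped the Hist1h4a peak, and whether its start did was not determined. The 17 starts of the table lay under 14 peaks, since 3 peaks spanned 2 of them. These were the peak named for Hist1h2ai, over the starts of Hist1h2ai and Hist1h2bl, the peak named for Hist1h2ah, over Hist1h2ah and Hist1h2bk, and the peak named for Hist1h2ag, over Hist1h2ag and Hist1h2bj. By family, and among the 52, 1 of 6 starts of linker histone H1 genes, 4 of 13 of H2A, 6 of 15 of H2B, 2 of 7 of H3 and 4 of 11 of H4 lay under a peak. The testis genes Hist1h1t, Hist1h2aa and Hist1h2ba had none. TATAAA was in 5 of the 17 covered windows and 26 of the 35 uncovered ones, and CCAAT in 15 and 29. A match on either strand anywhere in the window was counted, so these are not counts of working TATA boxes. Hist1h4j is among the 5, though its printed upstream stretch held no match. Hist1h2ah and Hist1h2bk are both among the 5, and their windows overlap. Of the other histone clusters, the 10 RefSeq genes of the Hist2 cluster on chromosome 3 had no peak, and the nearest ones lay 46.5 kb and 306.1 kb away. H2afx, whose protein is phosphorylated at DNA breaks, had 0 peaks in the table. Clustered histone genes share near-identical coding sequences, the reads were short pairs of 36 bases, and how reads with several matches were handled was not given in the sources used here. Counts at these genes, and the lack of a peak at a start, are uncertain for that reason.

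A peak's name did not always tell which start it covered. The peak named for Hist1h2bc spanned that gene's start and also the start of Hist1h2ac, which reads in the other direction, while the peak named for Hist1h2ac lay 23848 bp from that gene. The peaks named for Hist1h2bl and Hist1h2bj lay 5891 and 7892 bp from those genes, and the starts of both lay under peaks of another name. In all, 30 of the 46 peaks were centred within 1 kb of the assigned start and 16 were not.

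**Figure D1:**
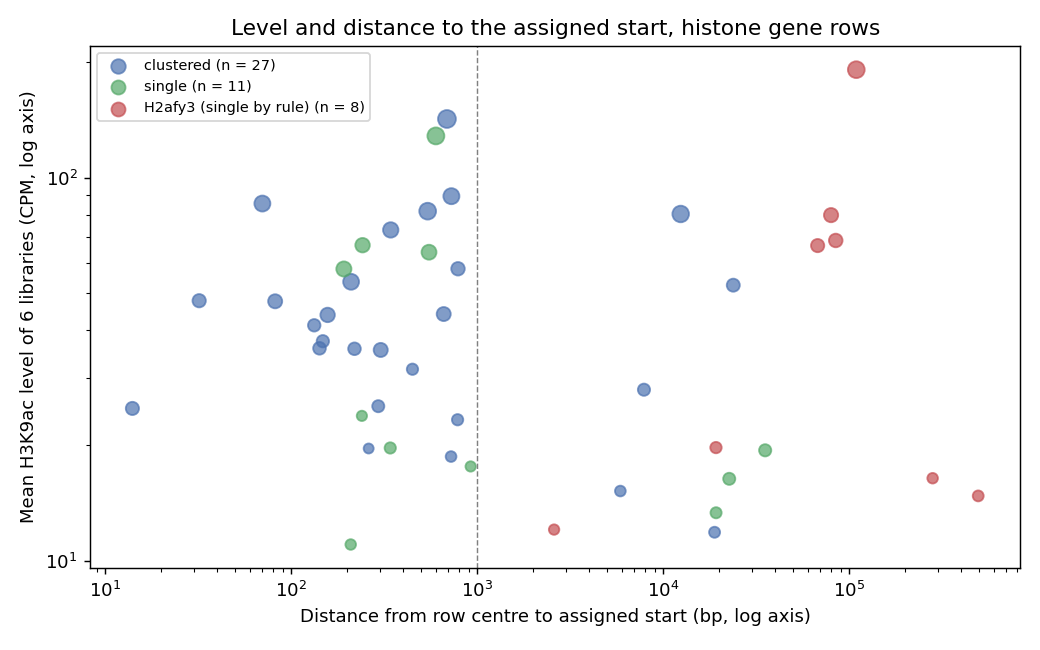
Mean level over the 6 libraries (CPM, log axis) against the distance from the peak's centre to its assigned start (bp, log axis) for the 46 histone gene peaks; a larger point is a wider peak and the dashed line marks 1 kb. The 30 peaks on the left lie near their own start, while all 8 H2afy3 peaks lie to the right of the line, the highest of them at 109391 bp.

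H2afy3 supplied 8 of the 19 single peaks, which carry its name as that of the nearest start. The closest of them, at 2593 bp, is annotated as the end of a transcript. RefSeq lists H2afy3 as a transcribed pseudogene of the macroH2A family. Its peaks lay 2.6 to 495.0 kb from the start, none covered it, and 4 of them lay inside Pvt1, a long non-coding RNA gene next to Myc. The highest, at chr15:62327903-62329781, had 254, 148 and 193 CPM in WT and 204, 163 and 186 CPM in CSE-KO. The groups overlapped, with a log2 fold change (CSE-KO over WT) of -0.14 (SE 0.16). This intergenic peak was the highest of all 46, and per kb of peak it was also the highest, at 102 CPM per kb. The peaks of this name are therefore given apart from the other single genes below.

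Per kb of peak, the median level of H3K9ac at histone peaks near a start was close to that of all peaks near a start. The median mean level was 36.6 CPM for the 46 histone peaks and 42.4 CPM for all peaks, and 63.9 CPM for the 8021 peaks within 1 kb of a start. Histone peaks had a median width of 652.5 bp (239 to 2405 bp), against 817 bp for all peaks. Near a start, the median width was 768.5 bp for histone peaks and 1073 bp for all peaks. Per kb, the median was 57.6 CPM for clustered peaks near their start and 59.0 CPM for single ones near theirs, and 60.1 CPM for all peaks near a start. By level, 13 of the 46 histone peaks lay above the median of peaks near a start, and per kb 15 did. Most thus lay below that median either way, and the 46 include 16 peaks beyond 1 kb. A CpG island label in the deposited annotation was held by 5 of 8 single peaks near a start and 0 of 22 clustered ones. The share was 17.3% over all peaks near a start. Among histone peaks, only those placed in introns or between genes had this label. All clustered peaks near a start were placed at promoters, exons, gene ends or a 3′ UTR. The 0 of 22 therefore says nothing of whether they lie in CpG islands.

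The clustered peak with the highest level, named for the H2B gene Hist1h2bc and lying at chr13:23683685-23686089, had 147, 109 and 170 CPM in WT and 139, 140 and 149 CPM in CSE-KO. It lay above 89.7% of all peaks near a start by level, but above only 48.3% per kb, since it was also the widest histone peak. Per kb of peak the clustered order was led by Hist1h3g (82.1 CPM per kb), Hist1h4d (80.2), the distal Hist1h2ac peak (76.3) and H2afj (73.3). Hist1h2bc stood in the middle, at 59.2 CPM per kb, beside Hist1h2be (57.1), Hist1h3e (55.4) and Hist1h4a (54.9). At the low end per kb were Hist1h2bq (33.7), Hist1h2bm (34.6) and Hist1h4j (35.5). Neighbours in this order differed by less than the spread between libraries.

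**Figure D2:**
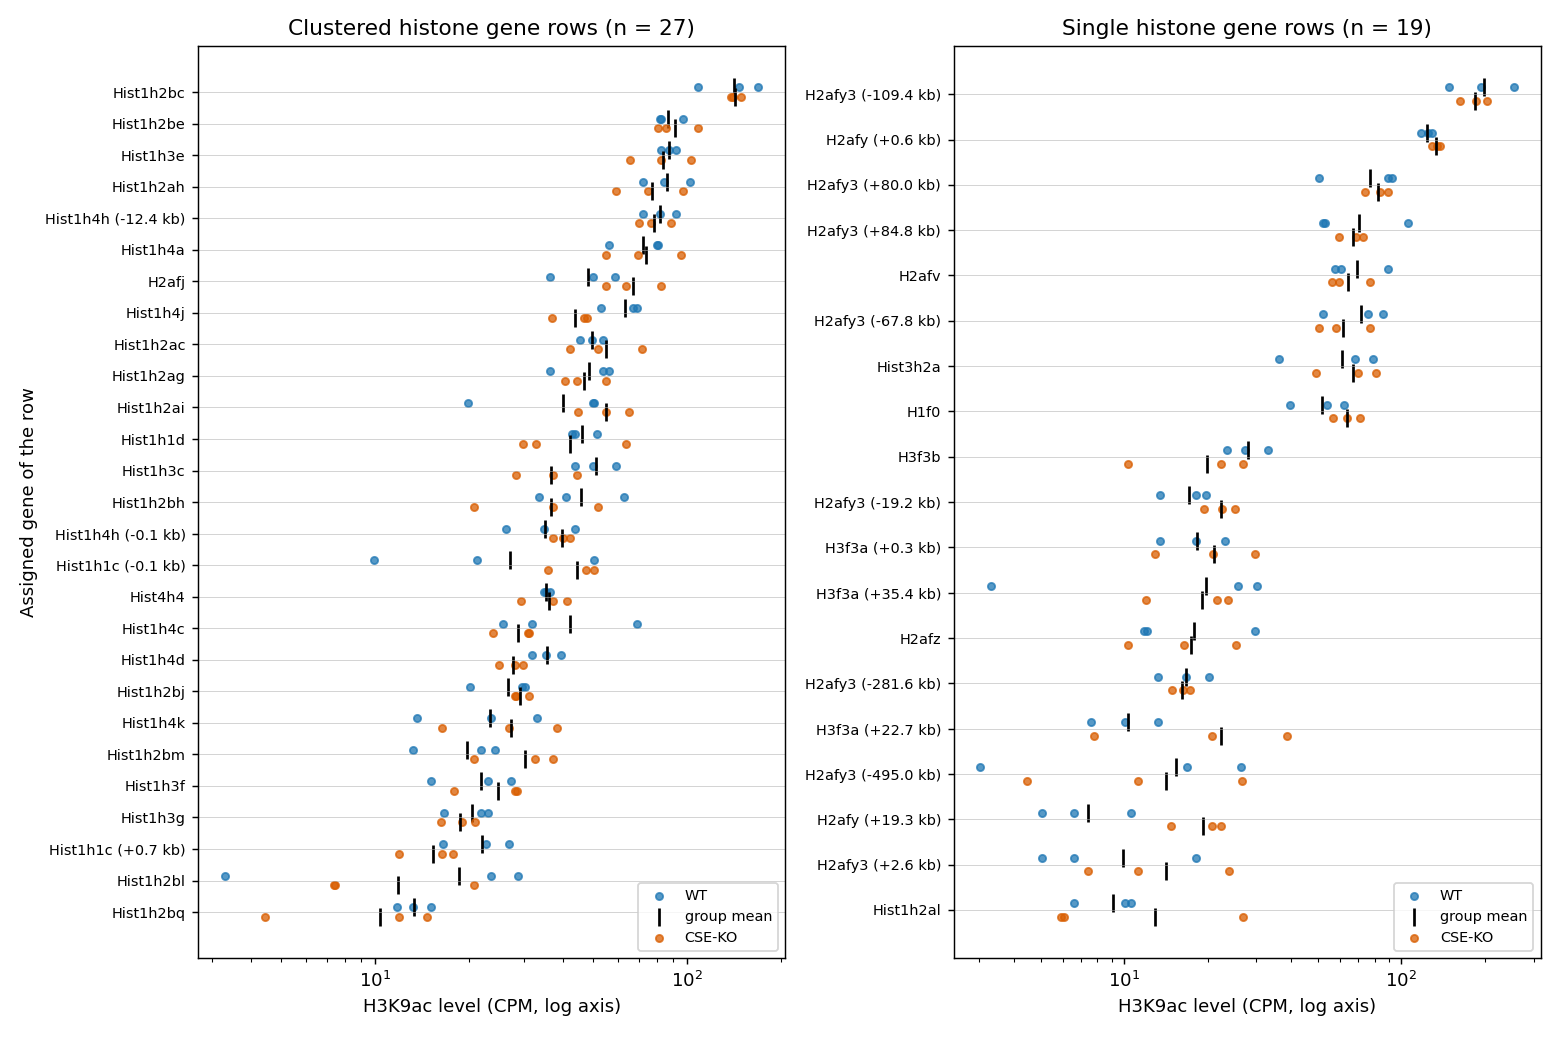
H3K9ac level (CPM, log axis) of each of the 46 histone gene peaks in the 3 WT and 3 CSE-KO libraries, clustered peaks left and single peaks right, ordered by mean level, which is not corrected for peak width; points are libraries, black ticks are group means, and a gene with several peaks has the distance to its start in kb. WT and CSE-KO points intermix at most peaks, from Hist1h2bc at the top (mean 142 CPM) to Hist1h2bq (11.9 CPM) among the clustered ones.

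No histone gene peak passed the test between CSE-KO and WT. Of the 46 peaks, 41 had enough counts to be tested (26 clustered and 15 single), and 0 were called at an adjusted p under 0.05 (edgeR quasi-likelihood test, Benjamini-Hochberg over all 16134 tested peaks). The background was 14 called peaks, or 0.0868% of those tested, and at such a share 0 of 41 is no result about histone genes. At an unadjusted p under 0.05 there were also 0 of 41, with 7.08% of all tested peaks, and DESeq2 called 0 and had 0 at that unadjusted level too. Other fits had some at that level, namely Hist1h1c with a replicate block or without WT replicate 3, H2afy with no count filter or without WT replicate 1, and H3f3a, Hist1h2bl and H2afy without CSE-KO replicate 1. The smallest adjusted p was 0.747. By the adjusted p of the authors' deposited table, 0.0559% of all peaks were under 0.05, and no histone gene peak was. In a bulk profile, a change in how many cells carry the mark and a change in its level per cell cannot be told apart.

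The size of the changes was small on the whole, and the data bound them only loosely. Counts were scaled to each library's own total in peaks, so a change shared by all peaks would not show in these values. The log2 fold change (CSE-KO over WT) ran from -0.68 to 0.61 over the 41 tested peaks, with a median of -0.02, and 21 of 41 lay below 0. Over all tested peaks 50.1% lay below 0, with a median of -0.00034. The median was -0.03 for the 26 clustered peaks (15 below 0) and 0.03 for the 15 single peaks (6 below 0), and these peaks' own median standard error was 0.32. The 95% interval lay within a log2 change of 1 in either direction for 23 of the 41. At the others the interval reached past that size. Within the cluster, the first block (chr13:21710134-22051354) had a median of 0.05 with 4 of 8 below 0, and the second (chr13:23517713-23762257) had a median of -0.06 with 11 of 16 below 0.

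**Figure D3:**
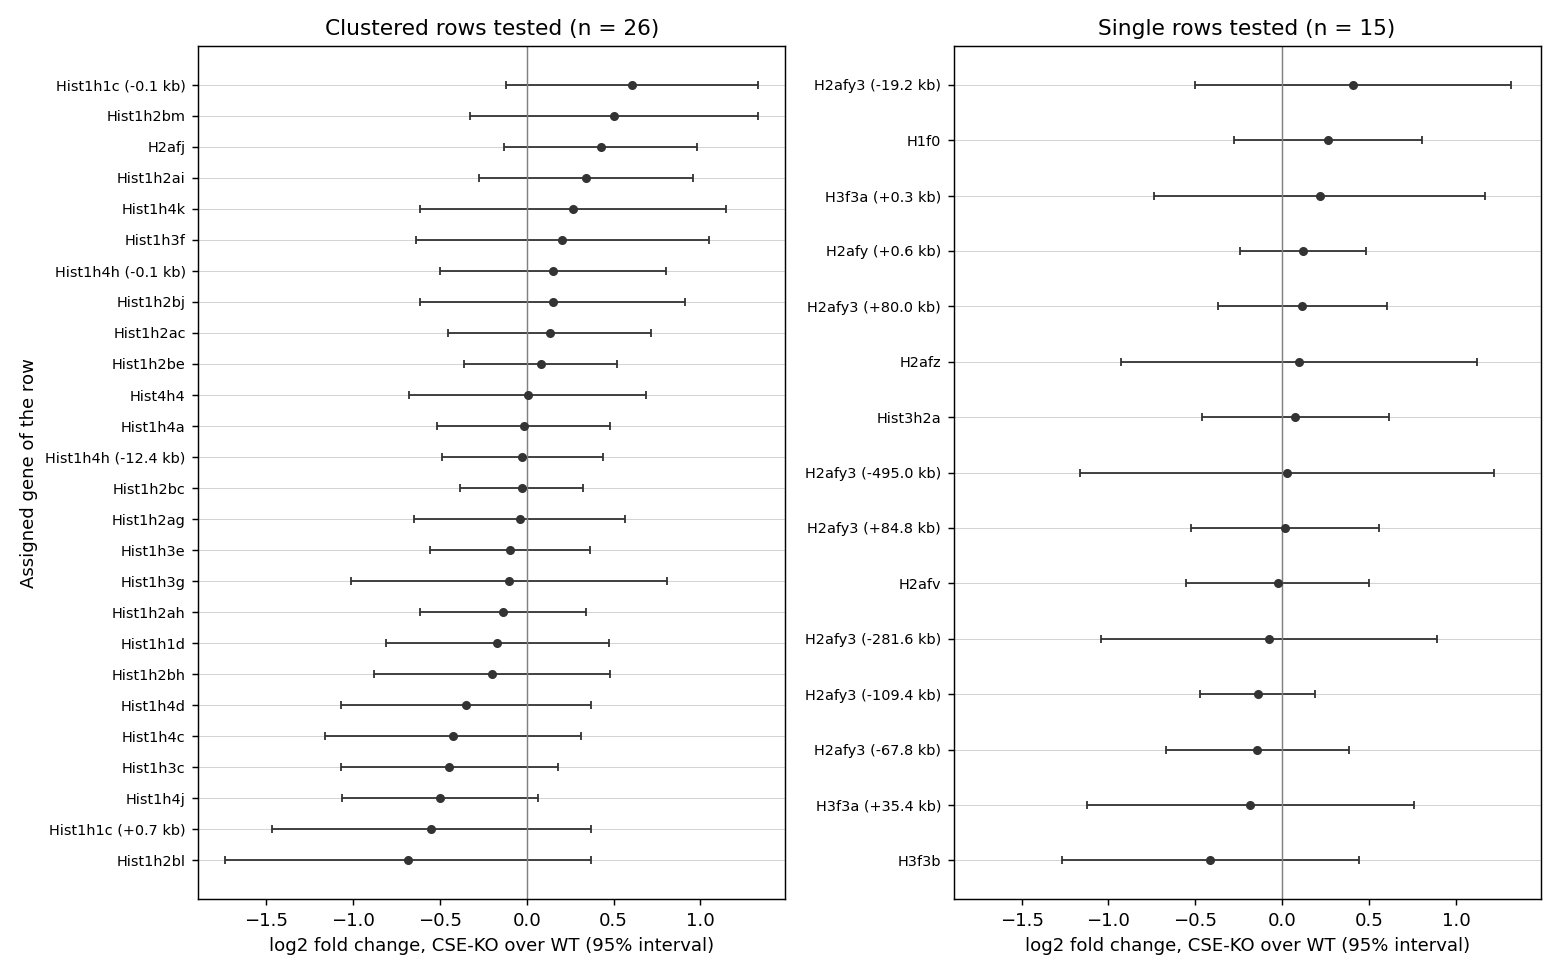
Log2 fold change (CSE-KO over WT) with its 95% interval at the 26 tested clustered and 15 tested single histone gene peaks, ordered by value; the vertical line is 0. Every interval crosses 0, and the values run from -0.68 (Hist1h2bl) to 0.61 (the Hist1h1c promoter peak).

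Linker histones compact the fibre between nucleosomes, and the clustered H1 genes had 3 peaks. The Hist1h1c promoter peak (chr13:23738357-23738974) had 21.2, 9.90 and 50.4 CPM in WT and 47.5, 35.8 and 50.3 CPM in CSE-KO. WT replicate 3 stood as high as the CSE-KO libraries, and the log2 fold change was 0.61 (SE 0.36, adjusted p = 0.766 by edgeR). The value moved with single libraries, to 1.37 without WT replicate 3 (adjusted p = 0.506) and 0.34 without WT replicate 2. A second peak at the 3′ end of the same short gene had a log2 fold change of -0.55 (SE 0.46), and the difference between the 2 peaks was not tested. Hist1h1d, whose peak had the highest total level of the 3, had 51.5, 42.9 and 43.7 CPM in WT and 32.8, 29.9 and 63.6 CPM in CSE-KO. Its CSE-KO libraries lay on both sides of the WT range (log2 fold change -0.17, SE 0.32).

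The core histones H2A and H2B pair in the nucleosome, and their clustered genes had 5 and 7 peaks. The H2A peak with the highest total level, Hist1h2ah, had 84.8, 102 and 72.2 CPM in WT and 75.2, 97.0 and 59.1 CPM in CSE-KO, with a log2 fold change of -0.14 (SE 0.24). The H2A peak with the smallest p was H2afj on chromosome 6, which lies beside Hist4h4 and encodes an H2A variant. It had 49.96, 36.3 and 58.8 CPM in WT and 63.9, 55.2 and 82.8 CPM in CSE-KO, with overlap through 1 library of each group. The log2 fold change was 0.42, with an SE of 0.28 and an adjusted p of 0.782 by edgeR. Its peak lay 789 bp downstream of the start, in what the deposited annotation gives as the 3′ UTR. Hist4h4 had 34.8, 36.3 and 35.3 CPM in WT and 29.4, 37.3 and 41.4 CPM in CSE-KO, so the groups overlapped at this neighbour too. The median log2 fold change was 0.13 for the 5 H2A peaks and 0.03 for the 6 tested H2B peaks. Among H2B peaks, Hist1h2bc had a log2 fold change of -0.03 (95% interval -0.39 to 0.33), and the lowest p belonged to the distal Hist1h2bl peak. That one had 28.8, 3.30 and 23.5 CPM in WT and 20.7, 7.46 and 7.39 CPM in CSE-KO, so WT replicate 2 was the lowest of all 6. Its log2 fold change of -0.68 (SE 0.52) became -1.43 without CSE-KO replicate 1 and -0.29 without WT replicate 1.

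Histones H3 and H4 form the tetramer at the core of the nucleosome, and H3 carries the lysine read here. Hist1h3e, the highest of 4 H3 peaks, had 92.3, 82.5 and 87.4 CPM in WT and 65.7, 103 and 82.8 CPM in CSE-KO at a log2 fold change of -0.10 (SE 0.23). Hist1h3c had 49.96, 59.4 and 43.7 CPM in WT and 37.1, 28.4 and 44.4 CPM in CSE-KO. One CSE-KO library reached the WT range, and the log2 fold change was -0.45 (SE 0.31, adjusted p = 0.806 by edgeR). The median over the 4 was -0.10.

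Histone H4 genes gave 8 clustered peaks, the most of any family, and both tested peaks whose groups did not overlap. Hist1h4j (chr13:21734071-21735577), whose promoter is printed above, had 53.0, 69.3 and 67.2 CPM in WT and 46.7, 47.8 and 37.0 CPM in CSE-KO. Every CSE-KO library lay below every WT library, on counts of 21 to 40 in WT and 25 to 54 in CSE-KO. The log2 fold change was -0.50 (SE 0.28, 95% interval -1.06 to 0.07), with an unadjusted p of 0.083 and an adjusted p of 0.747 by edgeR. Hist1h4d had 31.8, 39.6 and 35.3 CPM in WT and 25.1, 29.9 and 28.1 CPM in CSE-KO, also without overlap. Its log2 fold change was -0.35, with an SE of 0.36 and an adjusted p of 0.883 by edgeR. These 2 of 41 are a smaller share than the 6.90% of all tested peaks with every CSE-KO library lower. In the other direction 0 of 41 did not overlap, against 6.09% of all tested peaks. The highest H4 peak, 12436 bp upstream of Hist1h4h, had 81.8, 92.4 and 72.2 CPM in WT and 89.0, 70.1 and 76.9 CPM in CSE-KO, and its log2 fold change was -0.03 (SE 0.23). The median over the 8 H4 peaks was -0.02.

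Among single genes, H2afy encodes macroH2A1, a variant with a large extra domain that is enriched on silent chromatin. Its start peak (chr13:56133975-56135925) had 118, 129 and 124 CPM in WT and 137, 134 and 129 CPM in CSE-KO. The highest WT and the lowest CSE-KO library met at 129 CPM. The log2 fold change was 0.12 (SE 0.18, 95% interval -0.24 to 0.48). A second H2afy peak, in an intron 19269 bp from the start, had 10.6, 6.60 and 5.04 CPM in WT and 14.7, 22.4 and 20.7 CPM in CSE-KO. All 3 CSE-KO libraries were higher there, but its counts were too low for the test. With no filter on low counts its unadjusted p was under 0.05 and its adjusted p was 0.622 (edgeR).

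The replacement H3 genes H3f3a and H3f3b encode the same protein. The H3f3a start peak had 18.2, 23.1 and 13.4 CPM in WT and 12.96, 20.9 and 29.6 CPM in CSE-KO, a log2 fold change of 0.22 (SE 0.47). H3f3b had 27.3, 33.0 and 23.5 CPM in WT and 26.8, 22.4 and 10.3 CPM in CSE-KO, a log2 fold change of -0.41 (SE 0.42) that ran from -0.73 without CSE-KO replicate 1 to -0.14 without CSE-KO replicate 3. The peaks are 390 and 269 bp wide. Per kb, H3f3b lay above 86.5% of peaks near a start and H3f3a above 30.6%. The distal H3f3a peaks, 35.4 and 22.7 kb away, had 25.7, 3.30 and 30.2 CPM and 7.57, 13.2 and 10.1 CPM in WT. In CSE-KO they had 21.6, 11.9 and 23.7 CPM and 7.78, 38.8 and 20.7 CPM, so the groups overlapped at both.

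H2afz and H2afv encode the H2A.Z proteins, which flank the starts of active genes. H2afz had 12.1, 29.7 and 11.8 CPM in WT and 16.4, 25.4 and 10.3 CPM in CSE-KO, with a log2 fold change of 0.10 (SE 0.51). H2afv was at nearly the same level per kb (63.7 CPM per kb, against 64.8 at H2afz). It had 57.5, 89.1 and 60.5 CPM in WT and 76.9, 59.7 and 56.2 CPM in CSE-KO, a log2 fold change of -0.03 (SE 0.26). Neither gene's groups separated. H1f0, a linker histone of cells that have left the cycle, had 62.1, 39.6 and 53.8 CPM in WT and 70.8, 56.7 and 63.6 CPM in CSE-KO. Its log2 fold change was 0.26 (SE 0.27). Hist3h2a, an H2A gene on chromosome 11, had 68.1, 36.3 and 79.0 CPM in WT and 81.2, 49.3 and 69.5 CPM in CSE-KO, a log2 fold change of 0.08 (SE 0.27). Hist1h2al, which lies on chromosome 13 but far from the cluster, had 10.6, 6.60 and 10.1 CPM in WT and 6.05, 26.9 and 5.91 CPM in CSE-KO and was not tested.

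Of the other 7 H2afy3 peaks, the pair at chr15:62134236-62135049 and chr15:62138933-62139908, inside Pvt1, had 53.0, 106 and 52.1 CPM and 92.3, 89.1 and 50.4 CPM in WT. In CSE-KO the same pair had 59.6, 68.7 and 72.5 CPM and 83.8, 89.5 and 73.9 CPM. The peak 67782 bp away had 75.7, 85.8 and 52.1 CPM in WT and 76.9, 58.2 and 50.3 CPM in CSE-KO. Groups overlapped at each of these. The other 4 were low, between 12.1 and 19.7 CPM on average, and their groups overlapped too. That at 2593 bp had 18.2, 6.60 and 5.04 CPM in WT and 11.2, 23.9 and 7.39 CPM in CSE-KO and was not tested. That at 19247 bp had 18.2, 19.8 and 13.4 CPM in WT and 22.5, 19.4 and 25.1 CPM in CSE-KO. The 2 farthest, at 281557 and 495006 bp, lay in no gene of the deposited annotation. They had 16.7, 13.2 and 20.2 CPM and 3.03, 26.4 and 16.8 CPM in WT, and 17.3, 14.9 and 16.3 CPM and 11.2, 4.48 and 26.6 CPM in CSE-KO. Over the 7 tested H2afy3 peaks the log2 fold change ran from -0.14 to 0.41, with a median of 0.02.

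Summed over the peaks, the share of each library's counts at histone genes overlapped between the groups, and no test was made on it. All 46 peaks held 0.218%, 0.209% and 0.210% of the counts in WT and 0.218%, 0.213% and 0.219% in CSE-KO. The clustered peaks held 0.126% ± 0.0041 (SD, n = 3) in WT and 0.126% ± 0.0041 (SD, n = 3) in CSE-KO. In the shallowest library, WT replicate 2, the clustered share was 0.121% with a 95% Wilson interval of 0.110% to 0.134%, which covers counting error only. The 11 single peaks other than those of H2afy3 held 0.0408%, 0.0395% and 0.0411% in WT and 0.0466%, 0.0462% and 0.0433% in CSE-KO. All 3 CSE-KO shares were higher there. This difference was not tested, and the set was split off with its values known.

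**Figure D4:**
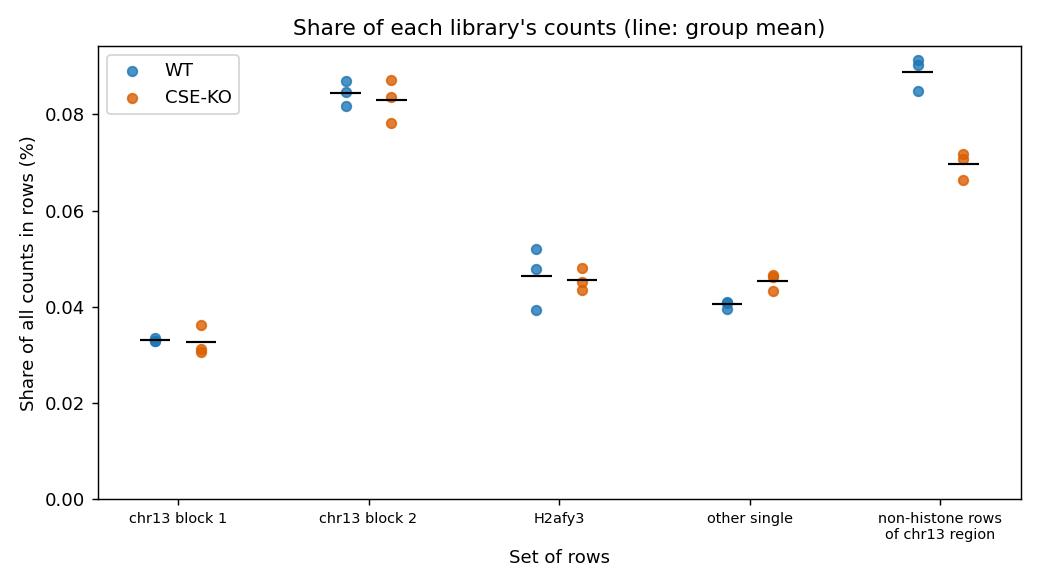
Share of each library's counts (%) in the first and second block of the chromosome 13 histone cluster, in H2afy3 peaks, in the other single histone peaks and in the peaks of other genes between the first and last histone peak of that cluster; points are libraries and lines are group means. Points of both groups intermix in the first 3 sets, CSE-KO lies higher in the other single peaks, and CSE-KO lies lower in the last set, which was added after its values were seen.

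Genes that control histone supply were followed from 3 lists. Factors of the histone locus body, histone mRNA processing and histone promoters were listed by 23 symbols, with Ars2 and Srrt both standing for 1 gene. Peaks were found under 21 of the symbols, and 22 peaks were tested. None was called. At an unadjusted p under 0.05 there was 1 of 22, beside 7.08% of all tested peaks, and 0 to 3 when a library was left out. Every CSE-KO library was lower at 2 of 22 and higher at 0, beside 6.9% and 6.09% of all tested peaks. Of the log2 fold changes, 17 of 22 were below 0 (median -0.20, against 50.1% below 0 over all tested peaks), and 15 to 19 of 22 to 24 were when a library was left out. Casp8ap2, which encodes FLASH, a scaffold of the histone locus body, had 83.3, 82.5 and 67.2 CPM in WT and 45.8, 52.2 and 57.7 CPM in CSE-KO. All CSE-KO libraries were lower (log2 fold change -0.59, SE 0.26, adjusted p = 0.658 by edgeR). Slbp, the stem-loop binding protein, had 75.7, 102 and 97.4 CPM in WT and 70.8, 55.2 and 69.5 CPM in CSE-KO, again without overlap (log2 fold change -0.46, SE 0.24, adjusted p = 0.723 by edgeR). Cpsf3, the nuclease that cuts histone pre-mRNA, had 183, 162 and 141 CPM in WT and 124, 113 and 148 CPM in CSE-KO, and its groups overlapped, at a log2 fold change of -0.34 (SE 0.18).

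Histone chaperones and exchange factors, which carry histones to and from DNA, had 27 tested peaks of 23 genes (29 listed). None was called, 14 lay below 0, and the median was -0.01. The groups did not overlap at 1 of 27 with CSE-KO higher and 1 with CSE-KO lower, beside 6.09% and 6.9% of all tested peaks. Ep400, the ATPase of a complex that deposits H2A.Z, had 93.9, 82.5 and 57.1 CPM in WT and 117, 119 and 105 CPM in CSE-KO. All CSE-KO libraries were higher (log2 fold change 0.55, SE 0.22, adjusted p = 0.629 by edgeR). Nasp, a chaperone of H3 and H4, had a log2 fold change of -0.43 (SE 0.24), and Cabin1, a subunit of the HIRA complex, had 0.47 (SE 0.29). Groups overlapped at both. Leaving out WT replicate 1 moved Cabin1 to 0.74 and Nasp to -0.29, and leaving out WT replicate 2 moved Cabin1 to 0.23.

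S phase and proliferation genes had 23 tested peaks (19 of 20 listed genes had a peak). None was called, and 10 of 23 lay below 0 (median 0.13). At an unadjusted p under 0.05 there were 2 of 23, both with CSE-KO higher, beside 7.08% of all tested peaks, and without CSE-KO replicate 3 there were 0. Tyms, the thymidylate synthase, had 31.8, 42.9 and 25.2 CPM in WT and 45.8, 61.2 and 73.9 CPM in CSE-KO, without overlap. Its log2 fold change was 0.89 (SE 0.32, adjusted p = 0.559 by edgeR). Ccna2, the S phase cyclin A2, had 96.9, 95.7 and 113 CPM in WT and 127, 142 and 158 CPM in CSE-KO, without overlap. Its log2 fold change was 0.46, with an SE of 0.19 and an adjusted p of 0.637 by edgeR. Gins2, a part of the replicative helicase, had a log2 fold change of 0.41 (SE 0.23), also with every CSE-KO library higher. These peaks were picked by smallest p. Of the 23, 3 had every CSE-KO library higher and 0 had every one lower, beside 6.09% and 6.9% of all tested peaks. The median over this list turned to -0.04 without WT replicate 3.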

How the data were processed

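H3K9ac CUT&RUN was measured in 6 libraries of mouse lung endothelial cells (3 WT, 3 CSE-KO). The authors deposited 1 table of peaks with the raw read count per peak and library, and the log2 fold changes, p-values and adjusted p-values of their own comparison. Tools named in the submitters' processing notes are featureCounts, DESeq2 1.36.0, STAR 2.7.11a, Trimmomatic 0.39 and Picard 3.1.1. For the peak caller, the sources used here give no name. Libraries were made with a ThruPLEX kit and sequenced as short read pairs, per the labels. The notes name build mm39, but the coordinates follow GRCm38: 43 of 46 histone peaks have an implied start within 100 bp of a RefSeq gene end on GRCm38.p6. All 34 gene symbols matched RefSeq, and 30 had a promoter sequence. Distances to a start are the deposited ones.

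Counts were scaled by TMM and tested over the whole table with edgeR 4.0.16 in R 4.3.3 (glmQLFTest, two-sided, filterByExpr with a minimum count of 10), with Benjamini-Hochberg adjustment and a threshold of 0.05. Alternatives were RLE or plain library sizes, voom with limma 3.58.1, DESeq2 1.42.0, other count filters, a replicate block and leaving out each library. The fit was tested on simulated data. Replicates of a group differed by more than counting noise (chi-square over its degrees of freedom, 1.91 to 2.14) and were kept as separate samples. Named were, in each clustered family and among single genes, the peak of highest level and of smallest p, every peak of a single gene, and up to 3 peaks per gene list. The members and lists were chosen with earlier results of these data known. Hist1h2bc and H2afy3 had no promoter in the table, so Hist1h2ac and H2afy are shown. The promoters of Hist1h4j and Hist1h1c, and peaks named outside this rule, were added after their values were seen.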

Additional observations from a re-analysis of the deposited data

How the results depend on the processing

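No histone gene peak, and no peak of the 3 gene lists, was called under any of the 13 alternatives to the edgeR fit. The count of all called peaks was 14. It was 7 with DESeq2, 8 with a mean count of 50 or more, and 6 to 13 when a library was left out (6 without CSE-KO replicate 1, 7 without WT replicate 3, 8 without CSE-KO replicate 3). The shared replicate numbers gave no clear pairing of the libraries, and a pairing was not tested further. Same-number correlations of deviations were 0.064, 0.013 and 0.0077, against -0.033 to 0.018 for pairs of different number. That of the replicates numbered 1 was the largest. With a replicate block 15 peaks were called, of which 0 were histone gene peaks. The clustered median of -0.03 was -0.0064 with library size alone, 0.0032 with a mean count of 50 or more, and -0.037 to 0.018 when a library was left out. The single median of 0.03 was -0.0095 with DESeq2, 0.092 with voom, 0.15 with a mean count of 50 or more and 0.017 to 0.17 when a library was left out. Clustered peaks within 1 kb of a start held 0.107% of WT and 0.108% of CSE-KO counts.

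The sign of the log2 fold change turned under at least 1 alternative at 15 of 26 tested histone peaks followed through the alternatives. None of them was called, and the cause was not tested. Hist4h4 and the second Hist1h1c peak, also named above, were not among the 26. When a library was left out, the values crossed 0 in the cluster at Hist1h2ah (-0.31 to 0.0039), Hist1h4h 23517713 (-0.14 to 0.049), Hist1h1d (-0.56 to 0.0089), Hist1h3e (-0.26 to 0.077) and Hist1h2bc (-0.15 to 0.11). They did so among single genes at H3f3a 180777946 (-0.53 to 0.15), H3f3a 180813070 (-0.10 to 0.51), H2afv (-0.20 to 0.14), Hist3h2a (-0.12 to 0.27) and H2afz (-0.23 to 0.52), and at the H2afy3 peaks that start at 62134236 (-0.15 to 0.33), 62138933 (-0.15 to 0.33), 62327903 (-0.28 to 0.086), 62500859 (-0.18 to 0.077) and 62714288 (-0.71 to 0.51). With voom H2afv was 0.034, with DESeq2 H2afy3 62134236 was -0.0095 and 62714288 was -0.049, and with a mean count of 50 or more Hist1h4h 23517713 was 0.0066. The median count of 26.5 per histone peak limits what could be detected.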

Other observations

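Between the first and last histone peak of the chromosome 13 cluster lay 22 peaks of other genes, a set formed after its values were seen. These peaks held 0.0849%, 0.0902% and 0.0912% of counts in WT and 0.0708%, 0.0718% and 0.0663% in CSE-KO, so every CSE-KO library was lower. Of the 19 tested, 15 had a log2 fold change below 0 (median -0.35), and 13 to 17 did when a library was left out. None was called by edgeR, while 6 had an unadjusted p under 0.05 (3 with DESeq2, which called 0), a level that 7.08% of all tested peaks reached. That count of 6 fell to 1 without CSE-KO replicate 3 and to 2 without WT replicate 3. At 6 of the 19 every CSE-KO library lay below every WT library, against 6.90% of all tested peaks. A peak near Prss16, a thymic serine protease gene (chr13:22021003-22021463), had 22.7, 26.4 and 63.8 CPM in WT and 14.7, 16.4 and 13.3 CPM in CSE-KO. Its log2 fold change was -1.37 (SE 0.43, adjusted p = 0.429 by edgeR), and -0.71 without WT replicate 3 (adjusted p = 0.835). The next Prss16 peak, which starts at 22021669, had 0.16 (SE 0.31). The zinc-finger gene Zfp184 had a peak at -1.12, Pom121l2 one at -0.74 and 4930557F10Rik one at -0.77. Hfe, the iron regulator gene that lies within the second histone block, had -0.07 (SE 0.45), and Abt1 had 0.09 (SE 0.36). The tested histone peaks of the first and second block of this cluster had medians of 0.05 and -0.06. The difference between the histone peaks and the peaks of other genes was not tested.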
